A study of Oryza sativa with 12 samples.

Results

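Rice seedlings chilled at either end of the day raised some transcripts at both times but by a larger fold before dawn than before dusk, and the 40 genes described here, out of 40424 listed in the count table, are those past a set size of that difference. They were chosen by their own measured levels. Counts were divided by median-of-ratios size factors, and M was the log2 of a group's mean scaled count plus 1. The rise at dusk, a, was M in chilled minus M in unchilled seedlings, and the rise at dawn, b, was the same difference at dawn. A member had an M of at least 8 (a mean scaled count near 256) in its highest group, a rise of at least 1 log2 unit (2-fold) at dusk, and a rise at dawn larger by at least 1.5 log2 units. Because the rule used both rises and their difference, these values describe the members and test nothing.

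The plants were seedlings of the indica rice cultivar 93-11 at the 3-leaf stage, grown at 28 °C with days of 12 h light and nights of 12 h. The title of every sample carries the tag WT, read here as wild type. Zeitgeber time (ZT) counts hours from lights-on. NT12 seedlings stayed at 28 °C and were harvested at ZT12 (dusk), and CT12 seedlings were held at 13 °C from ZT8 until that harvest. NT24 seedlings stayed at 28 °C until ZT24 (dawn), and CT24 seedlings were held at 13 °C from ZT20 until that harvest. All groups were plants of about 10 days, harvested on day 11, with 3 libraries per group from the pooled above-ground parts of 5 plants each. Chilling therefore fell in the last 4 h of the light phase at dusk and of the dark phase at dawn. The labels do not say whether the lights kept to their cycle in the cold, so time of day and the light regime cannot be told apart.

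In plants the circadian clock sets the level of many transcripts through the day, and it also changes how strongly a gene answers the same stress at different hours, which is called gating. In Arabidopsis, cold induction of the CBF (DREB1) transcription factors is a textbook case of a gated response. A fold change is a ratio, so a gene whose level is low at one hour can show a large fold there with a small gain in transcripts. Starting level, chilled level and gain are therefore given separately below. The files give no gene names, and 0 of the 40424 identifiers matched the reference gene table, so no function is assigned to any member.

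Each library held between 42966604 and 52762123 counts. The size factors were 1.37 to 1.42 in NT12, 0.680 to 0.803 in CT12, 0.994 to 1.01 in NT24 and 0.968 to 1.13 in CT24. Dividing by them raises CT12 counts relative to those of the other groups, most of all NT12. The members took 0.0974% to 0.112% of the counts in NT12 libraries and 0.226% to 0.288% in CT12 libraries. They took 0.0171% to 0.0199% in NT24 and 0.198% to 0.255% in CT24. Together the members were thus scarcest in unchilled seedlings at dawn, whose 3 libraries lay below all the others. The rule favours a low NT24, and a pooled share is weighted toward members with many counts. OsR498G0714928600.01 alone gave 3843, 3839 and 3782 of the 8587, 8795 and 7950 member counts in NT24 replicates 1, 2 and 3. The libraries are of whole shoots, so fewer cells of a type and less RNA per cell cannot be told apart. CT12 replicate 2 and NT24 replicate 1 stood apart from the other libraries of their groups, with a chi-square per gene of 138 and 139 for the former and 75.6 and 89.5 for the latter, and without them the rule found 38 and 75 genes, of which 28 and 36 were among the 40.

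At dusk the members rose by 1.01 to 4.75 log2 units, with a median of 1.69. At dawn they rose by 2.70 to 7.89, with a median of 3.84. In plain ratios of group means, the median member rose 3.24-fold at dusk and 14.9-fold at dawn. The difference between the rises ran from 1.5001 to 5.39 log2 units, with a median of 2.01, and 20 of the 40 members had a difference below 2. The response was thus mostly a modest rise at dusk, below 2 log2 units in 27 members, beside a rise of at least 3 log2 units at dawn in 38.

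**Figure D1:**
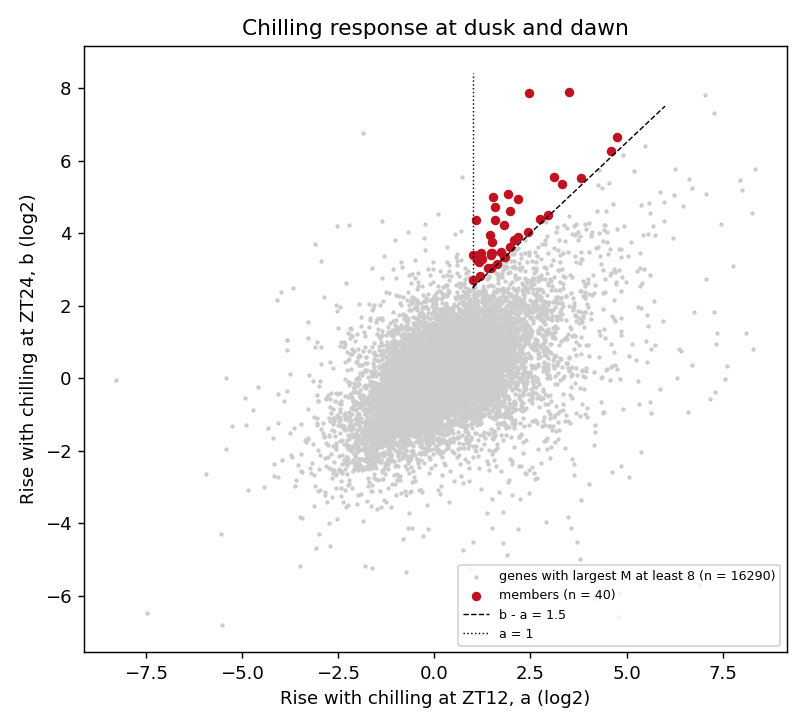
Rise with chilling at ZT12 (a, x axis, log2) against the rise at ZT24 (b, y axis, log2) for the 16290 genes whose highest group had an M of at least 8; the 40 members are in red, above the dashed line where the rises differ by 1.5 and to the right of the dotted line at a rise of 1. The members form the part of the upper edge of the cloud to the right of the dotted line, from a rise of 2.70 to one of 7.89 at dawn. A further 704 genes passed the limits on level and difference but rose by less than 1 at dusk.

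The same contrasts were fitted across the 24700 genes with enough counts (edgeR's quasi-likelihood test), and all 40 members were among them. At dusk 36 members were called higher after chilling at an adjusted p below 0.05, against 24.9% of all genes tested. At dawn all 40 were called higher, against 21.9%. The difference in response was called in 33, against 9.24% of all genes called more positive at dawn. The 3 CT12 libraries lay above the 3 NT12 libraries in 38 members, beside 27.8% of all genes, and the CT24 libraries lay above the NT24 libraries in all 40, beside 29.3%. The rule used these contrasts, so the counts only describe the members. A call weighs a rise against a spread that edgeR estimates over all 4 groups and adjusts toward that of other genes. For 7 members the difference of the rises did not pass the test.

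The members are not set off by a gap from the other genes on the difference. The nearest gene inside the limit on the difference had 1.5001 and the nearest outside had 1.493, and 6 members lay within 0.1 above that limit while 14 other genes lay within 0.1 below it. For the rise at dusk the nearest values were 1.01 inside and 0.907 outside. For the highest M they were 8.30 inside and 8.00 outside.

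The largest difference belonged to OsR498G1018624000.01. Its scaled counts were 3035, 2504 and 3376 in the NT12 libraries and 17889, 13895 and 17423 in the CT12 libraries. At dawn they were 8.88, 0 and 0 in NT24 and 983, 905 and 852 in CT24. This gene was abundant at dusk at either temperature and close to undetected at dawn at 28 °C. Its chilled level at dawn was 30.7% of its unchilled dusk level. Group means were 2972 ± 439, 16402 ± 2184, 2.96 ± 5.13 and 913 ± 65.7 (SD, n = 3). The fitted rise was 2.46 (SE 0.35) at dusk and 8.18 (SE 0.55) at dawn, a difference of 5.73 (SE 0.67). All 9 of its NT24 counts came from replicate 1, so the size at dawn is poorly measured, and without that library the fitted difference was 10.45 with no NT24 count left.

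OsR498G0409454700.01, the next by difference, had another pattern. It was close to undetected at 28 °C at both times, with 5.84, 0.705 and 0 scaled counts in NT12 and 0.987, 0 and 0 in NT24. Chilling brought it to 14.7, 44.8 and 44.8 in CT12 and to 338, 312 and 293 in CT24. Here the chilled libraries at dawn all lay above those at dusk, and the unchilled groups overlapped. Its NT24 libraries held 1 count in all and its CT24 libraries 999, which gives a 942-fold ratio (exact 95% interval, counting error alone, 169 to 37260). The fitted difference was 5.502 (SE 1.51, edgeR adjusted p = 0.0226), but leaving out NT12 replicate 1 brought it to 3.24 (edgeR adjusted p = 0.316). It was also not called without NT24 replicate 2 or 3, under limma-voom or with the replicate number as a block.

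A larger rise at dawn can come from a lower unchilled level, a higher chilled level, or both, and the members divided along this line. Calling a shift of at least 1 log2 unit (2-fold) lower or higher, 30 of the 40 members had a lower level at dawn than at dusk at 28 °C, 10 had a similar level and 0 a higher one. After chilling, 16 were lower at dawn than at dusk, 13 similar and 11 higher. By the same limit, 2337 of the 16290 genes with the minimum level were lower at dawn at 28 °C. Their split after chilling was not counted. In the even set described below, of 1090 chilling-induced genes, 338 were lower at 28 °C, and after chilling 366 were lower and 108 higher. At 28 °C the middle 50% of members had between 7.18% and 48.1% of their dusk level at dawn, and in the cold they had between 32.8% and 206%. The rule favours a low NT24 and a high CT24, so part of this division follows from the choice of members.

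**Figure D2:**
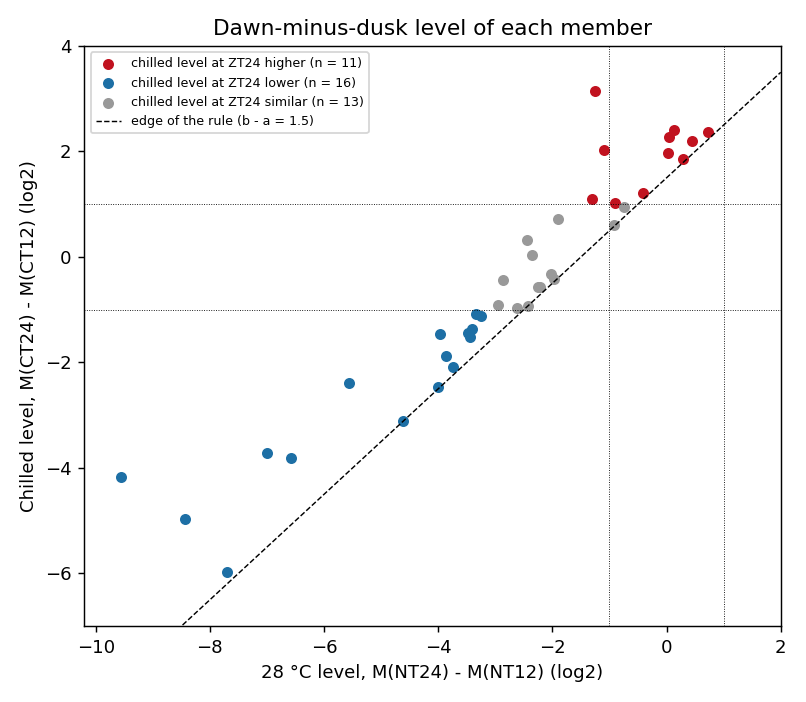
Level at dawn minus level at dusk for each of the 40 members, at 28 °C (x axis, log2) and after chilling (y axis, log2), with dotted lines at -1 and 1; every point lies at or above the dashed line because the rule requires it. The points run from genes far lower at dawn at both temperatures (16 in blue) to genes higher at dawn after chilling (11 in red), of which 8 were alike at 28 °C and 3 lower at dawn.

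The largest class, with 16 members, was lower at dawn both at 28 °C and after chilling. At 28 °C these genes had 0.0996% to 10.1% of their dusk level at dawn, with a median of 6.23%. After chilling the figure was 1.60% to 47.2%, with a median of 21.3%. The share was larger in the cold in each of them, as the rule requires. It was under 50% in all, as the limit of the class requires. Their median mean scaled count went from 999 to 2607 with chilling at dusk and from 19.2 to 553 at dawn. In 5 of the 16 the mean level reached at dawn in the cold was at or above the unchilled level of dusk.

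OsR498G1018809400.01 was an extreme case of that class. It had 3002, 3089 and 3196 scaled counts in NT12 and 15951, 8525 and 14640 in CT12. At dawn it had 18.8, 8.05 and 15.1 in NT24 and 214, 212 and 198 in CT24. Every dusk library thus lay far above every dawn library, whichever temperature the seedlings had met. The ratio of means was 4.21 at dusk and 14.9 at dawn, but chilling at dawn left the gene at 6.72% of its unchilled dusk level. The difference between the fitted rises was 1.80 (SE 0.37, edgeR adjusted p = 0.00492), a call that limma-voom did not make (adjusted p = 0.0985).

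Another class of 11 members was lower at dawn at 28 °C but within 2-fold at dawn and dusk after chilling. Shifts of -0.92, -0.90 and 0.73 log2 units after chilling were nonetheless called (edgeR adjusted p = 0.00842, 0.000778 and 0.0133). The difference in response was called in 8 of the 11. They had 12.6% to 26.3% of their dusk level at dawn at 28 °C and 51.3% to 165% after chilling. In 10 of the 11 all NT12 libraries lay above all NT24 libraries. The mean dawn level in the cold exceeded the unchilled dusk level in all 11, as the class limit and the minimum dusk rise require. Its median was 375% of that level.

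OsR498G0306639200.01, in this class, had the next to largest rise at dusk among the members. It had 15.3, 46.6 and 81.7 scaled counts in NT12 and 619, 1383 and 1570 in CT12. At dawn it had 19.7, 1.01 and 0 in NT24 and 556, 706 and 572 in CT24. The chilled libraries lay far above the unchilled ones at both times, while the unchilled groups overlapped. Ratios of means were 24.9 at dusk and 88.4 at dawn. The difference of the fitted rises, 1.79 (SE 1.13), did not pass the test (edgeR adjusted p = 0.297), while leaving out NT24 replicate 1 gave 5.29 (edgeR adjusted p = 0.0209), so that library decides its size.

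OsR498G0409056600.01, which belongs to the class that stayed lower at dawn, had the largest rise at dusk. Its scaled counts were 186, 92.4 and 109 in NT12 and 2900, 4789 and 2801 in CT12. They were 3.95, 21.1 and 8.05 in NT24 and 774, 807 and 2068 in CT24. Ratios of means were 27.1 at dusk and 110 at dawn, so this gene responded strongly at both hours. The fitted difference was 2.01 (SE 0.75) and was not called (edgeR adjusted p = 0.0786). It was called without NT24 replicate 2 (2.87, edgeR adjusted p = 0.0362), without CT12 replicate 2 (2.30, edgeR adjusted p = 0.0477), under total-count scaling and with DESeq2.

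A further class of 8 members had a similar unchilled level at both hours and a higher chilled level at dawn. At 28 °C their dawn level was 53.6% to 165% of the dusk level, and after chilling it was 204% to 531%. By these 2-fold limits, the stronger dawn response in them was a higher chilled level beside a like unchilled level. The NT12 libraries still lay above the NT24 libraries in 1, called lower at dawn (-0.88, edgeR adjusted p = 0.0016). At 28 °C OsR498G0816265000.01 was called higher at dawn (0.74, edgeR adjusted p = 0.0234). After chilling, the higher dawn level of Novel00196 was not called (edgeR adjusted p = 0.192). The difference in response was called in 6 of the 8. Their median ratio of means was 2.83 at dusk and 11.0 at dawn. The mean chilled level at dawn was 532% to 2022% of the unchilled dusk level, and the class limits already place it well above that level.

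OsR498G0714928600.01 was named because its mean scaled count in CT24 ranked first among the members, a rank that is not corrected for gene length. It had 3915, 3168 and 4161 scaled counts in NT12 and 10006, 13390 and 8704 in CT12. At dawn it had 3793, 3861 and 3804 in NT24 and 35820, 39314 and 50029 in CT24. Unchilled levels were thus alike at both hours and the chilled libraries at dawn lay above all those at dusk. The means were 3748 ± 517, 10700 ± 2419, 3819 ± 36.5 and 41721 ± 7404 (SD, n = 3), which is a rise of 2.85-fold at dusk and 10.9-fold at dawn. The difference of the fitted rises was 1.93 (SE 0.25, edgeR adjusted p = 0.000256), and with 1 library left out it stayed between 1.78 and 2.12.

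OsR498G0816265000.01 followed the same course. It had 738, 509 and 604 scaled counts in NT12 and 2238, 3422 and 1581 in CT12. At dawn it had 1014, 1022 and 1013 in NT24 and 10951, 12819 and 13682 in CT24. Its 3 NT24 libraries all lay above its NT12 libraries, which held for no other member. Chilling raised it 3.91-fold at dusk and 12.3-fold at dawn, with a fitted difference of 1.64 (SE 0.33, edgeR adjusted p = 0.00424).

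The remaining 5 members lay between these classes. In 3, among them OsR498G0409454700.01, the level at dawn was lower at 28 °C and higher after chilling. It was 15.1% to 46.7% of the dusk level at 28 °C and 214% to 903% in the cold. Both shifts were called in only 1 of the 3 (edgeR's quasi-likelihood test). In the others the difference at 28 °C did not pass the test (edgeR adjusted p = 0.206 and 0.229). In the other 2 both shifts were under 2-fold, with 52.2% and 59.5% at 28 °C and 152% and 193% after chilling. Novel00196 was the only member whose identifier did not begin with OsR498G, and it was singled out after its values were seen. It varied widely within groups, with 428, 110 and 173 scaled counts in NT12, 287, 1169 and 179 in CT12, 287, 155 and 92.5 in NT24 and 1137, 805 and 1843 in CT24. Its rise at dusk (edgeR adjusted p = 0.198) and the difference (edgeR adjusted p = 0.286) did not pass the test.

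**Figure D3:**
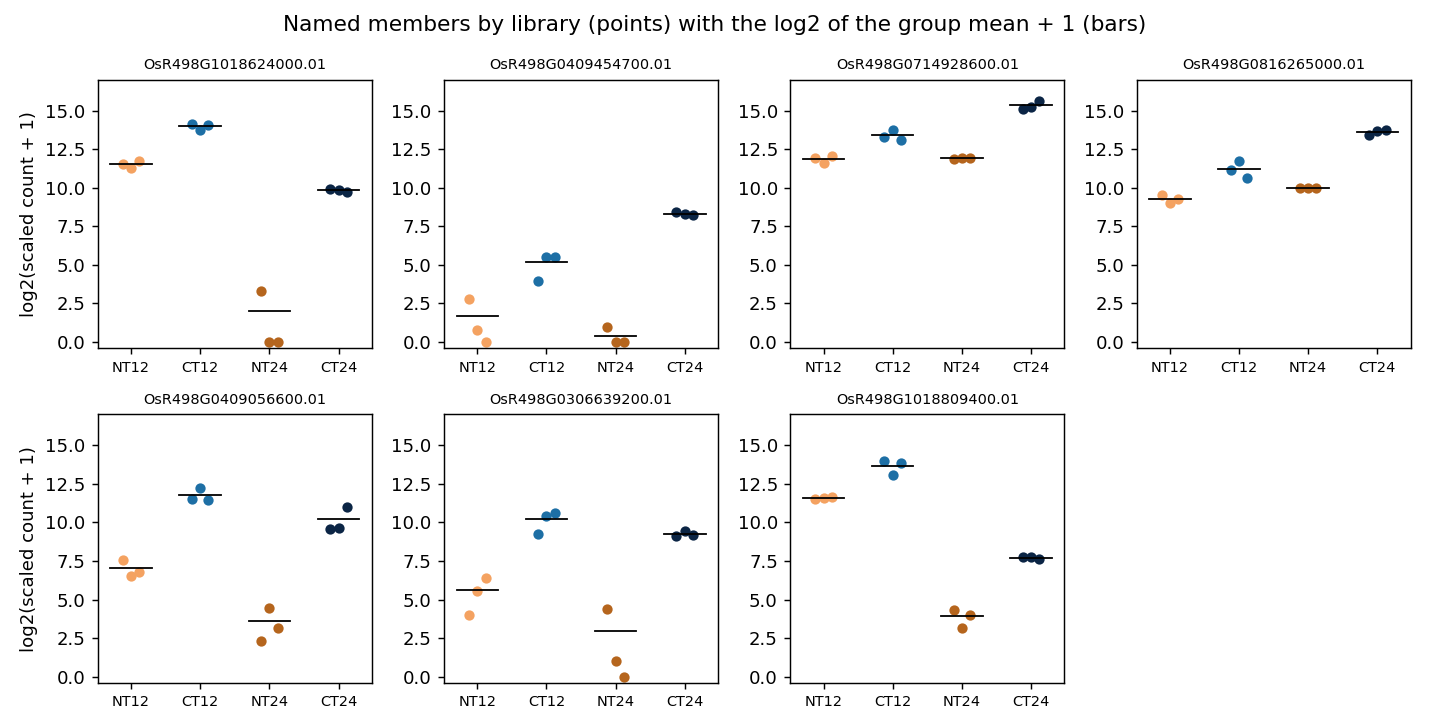
Scaled counts, as log2 of the count plus 1, of the 7 members that the naming rule gave, in each of the 3 libraries (points) of the 4 groups; bars mark the log2 of the group mean plus 1. The top right pair start alike at both hours and are highest in CT24, whereas OsR498G1018624000.01 and OsR498G1018809400.01 are highest in CT12 and lowest in NT24.

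On the linear scale the order of dusk and dawn was different. The gain with chilling, in scaled counts, was larger at dusk in 22 of the 40 members and larger at dawn in 18. The median gain was 876 at dusk and 702 at dawn. All 16 members of the class that stayed lower at dawn gained more at dusk, as the class limits and the minimum dusk rise require. Their median gain was 1409 at dusk against 503 at dawn. In the class that started alike, all 8 gained more at dawn, which the limits of that class also require. Their median gain was 3603 at dawn against 738 at dusk. The limits do not settle the order in the class that became similar, where 6 of the 11 gained more at dusk. The label of a stronger rise at dawn therefore holds as a fold for all 40 members, by the rule, and as a gain in transcripts for 18. Under total-count scaling, which lowers the CT12 values, the members with a larger gain at dusk numbered 13 and those with a larger gain at dawn were the rest.

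**Figure D4:**
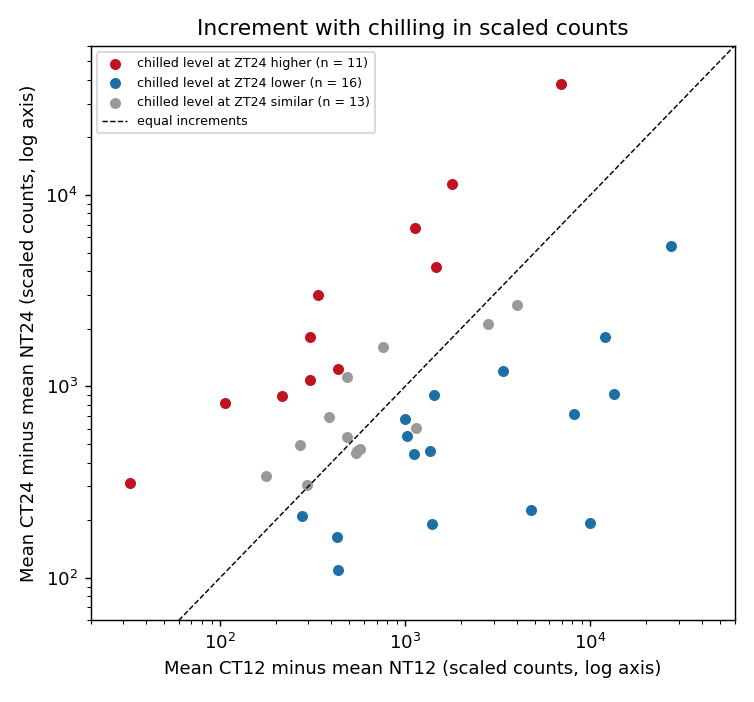
Gain with chilling in mean scaled counts at ZT12 (x axis) and ZT24 (y axis), both on log axes, for the 40 members, coloured by whether the chilled level at dawn was lower than, similar to or higher than at dusk. Points below the dashed line of equal gains (22 members) gained more at dusk, and OsR498G0408481900.01, at the far right, gained 27330 at dusk and 5402 at dawn.

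OsR498G0408481900.01, was singled out after its values were seen. Its mean scaled count went from 4049 to 31378 at dusk and from 251 to 5653 at dawn. As a ratio that is 7.75 at dusk against 22.5 at dawn, so the fold and the gain order the hours in opposite ways, as its class limits require.

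The mean of the ZT24 groups minus the mean of the ZT12 groups is orthogonal to both chilling responses and to their difference, as long as the groups vary alike. The rule still bears on it in more than one way, so its calls among the members are a description and support nothing. The minimum level was met only by dusk groups in 6 members, only by dawn groups in 3 and at both hours in 31. The groups also did not vary alike. The coefficient of variation between libraries had a median of 38.1% over the members in NT24, against 18.4% in NT12, 28.2% in CT12 and 17.6% in CT24. The rule favours low NT24 values, and how far that moves this contrast was not tested.

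Averaged over the temperatures, 26 of the 40 members were lower at dawn, against 25.5% of all genes tested and 29.9% of those with the same minimum level (edgeR's quasi-likelihood test, adjusted p below 0.05). Another 5 were higher at dawn, against 27.3% and 33.5%, and 9 were not called. Among the 31 members that met the minimum level at both hours, 20 were lower and 4 higher. The share of all genes meeting that minimum at both hours was not counted, so these numbers have no background. The median log2 difference was -1.54, against 0.05 over all genes tested. The 26 comprised all 16 members that stayed lower at dawn and 10 of the 11 that became similar. The 5 that were higher all belonged to the class of 8 that started alike. In 8 members every one of the 6 dusk libraries lay above every one of the 6 dawn libraries, beside 10.1% of all genes, and in 0 did the reverse hold, beside 9.32%.

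The named members with dusk libraries above dawn libraries were OsR498G1018624000.01 and OsR498G1018809400.01, and the latter met the minimum level only at dusk. For the first the log2 difference, dawn minus dusk, came to -7.02 (SE 0.34, edgeR adjusted p = 1.49e-08), and for the other to -6.86 (SE 0.21, edgeR adjusted p = 5.4e-10). With 1 library left out the former ranged from -9.38 to -6.74 and the latter from -6.99 to -6.72. Of the pair with the highest counts in CT24, OsR498G0816265000.01 was higher at dawn by 1.56 (SE 0.17, edgeR adjusted p = 1.03e-05) and OsR498G0714928600.01 by 1.01 (SE 0.13, edgeR adjusted p = 3.49e-05). No member met the rule for naming one higher at dawn, since that asked for 6 libraries above 6. OsR498G0409454700.01 showed no called difference (0.43, SE 1.79, edgeR adjusted p = 0.862).

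At each temperature alone the direction is partly set by the rule and is given as a description. At 28 °C, 29 members were lower at dawn and 1 higher, beside 20.9% and 23.2% of all genes tested (edgeR's quasi-likelihood test). The NT12 libraries lay above the NT24 libraries in 29 members, beside 28.3%. Under chilling, 17 were lower at dawn and 12 higher, beside 21.8% and 20.3%. The CT12 libraries lay above the CT24 libraries in 19, beside 24.9%, and below them in 12, beside 24.6%. Of the 29 lower at 28 °C, 17 were also called lower in the cold, 9 were not called there and 3 were called higher. A difference called at 28 °C and not in the cold does not show that the temperatures differ, which is what the difference of the rises tests.

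**Figure D5:**
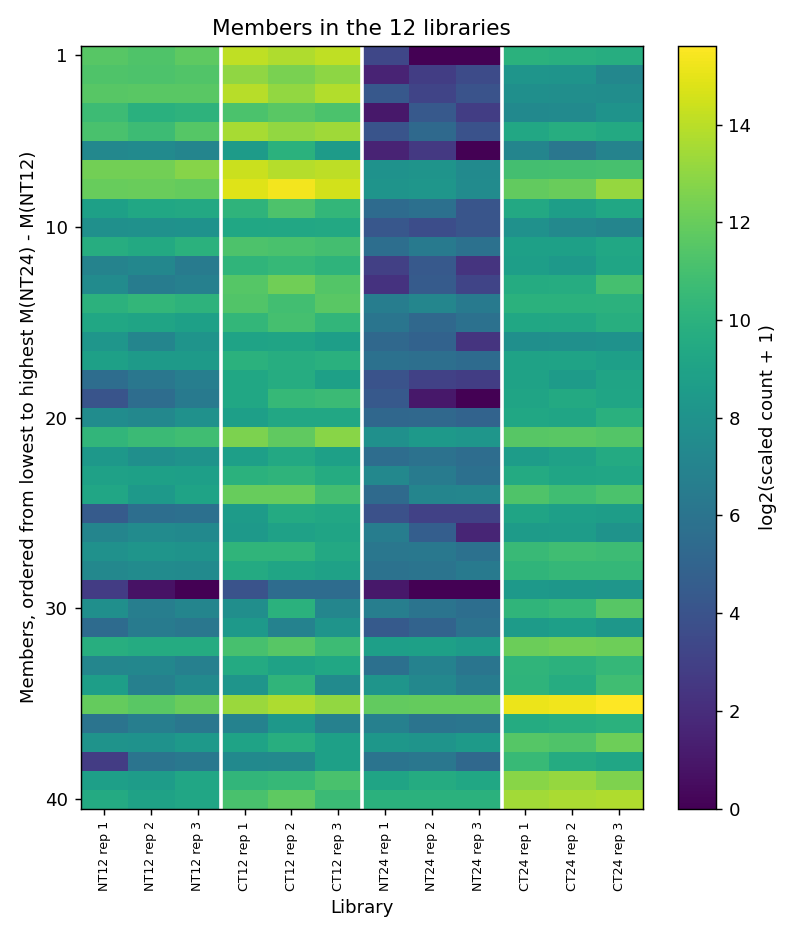
Scaled counts of the 40 members (rows) in the 12 libraries (columns), as log2 of the count plus 1, ordered from the member with the lowest M(NT24) minus M(NT12) at the top to the highest at the bottom. The NT24 columns are darkest for 34 members, and the brightest columns pass from CT12 in the upper part (24 members) to CT24 in the lower part (16).

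The levels at dawn in the cold were also set against the unchilled level of dusk. Chilled seedlings at dawn had a mean at or above that of NT12 in 29 members and below it in 11. The CT24 libraries lay above all NT12 libraries in 26, beside 31.6% of all genes, and below all of them in 8, beside 32.4%. Over the 40 members the chilled dawn level was 6.72% to 14406% of the unchilled dusk level, with a median of 374%, and the upper end is the member that was close to undetected at 28 °C. The 11 members that stayed below NT12 all belonged to the class of 16, since the limits of the other classes do not allow it.

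Other groups of chilling-induced genes were taken from the same table with the same minimum level, to show where the members differ. The mirror set, with a rise of at least 1 at dawn and a rise at dusk larger by at least 1.5, held 135 genes. The even set, with rises of at least 1 at both hours that differed by less than 1.5, held 1090. At 28 °C the median level at dawn minus dusk was -2.44 log2 units in the members, 0.44 in the mirror set and -0.36 in the even set. After chilling it was -0.57, -1.82 and -0.48. The unchilled medians followed the order the rules themselves favour, and no test was made between the sets.

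On the contrast averaged over the temperatures, 49.6% of the mirror set and 49.2% of the even set were called lower at dawn (67 and 536 genes), and 23.7% and 23.6% higher. The members stood at 65.0% and 12.5%. Median log2 differences were -1.54 in the members, -0.60 in the mirror set and -0.39 in the even set. In each of these groups of chilling-induced genes the share called lower at dawn was above that of all genes tested. Whether the members differ from the other sets was not tested.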

How the data were processed

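The authors deposited raw counts per gene, with no normalization and 1 column for each of 12 libraries. Per the submitters' processing notes, HISAT2 2.0.4 was used. Not given in the sources used here are the build and annotation, the tool that counted the reads and whether it used strand. Near-identical or overlapping genes may therefore share reads. Scaled counts are counts divided by median-of-ratios size factors over genes above 0 in every library. They are not divided by gene length, so a rank by level or gain across genes is not one of transcript abundance.

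Counts were fitted with edgeR 4.0.16 in R 4.3.3 (TMM scaling, minimum count 10, minimum total 15, 24700 genes, 1 mean per group, 8 residual degrees of freedom). Contrasts were tested across all genes by the quasi-likelihood method of edgeR, with p-values adjusted after Benjamini and Hochberg and a threshold of 0.05. Standard errors came from the F statistic. Simulated counts with known changes were used to check the fit. They were drawn with the same dispersion for a gene in every group, and the outcome is not reported here. Alternatives were RLE, upper-quartile and total-count scaling, no filter, DESeq2 1.42.0, limma-voom 3.58.1, the replicate number as a block and leaving out each library.

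The members and the comparison sets were chosen with earlier results of these data known. Named members were the 2 with the largest difference, the 2 with the highest CT24 mean, the 2 with the largest dusk rise, and up to 2 in each direction with the largest called mean time difference and no overlap of 6 libraries against 6. Libraries of a group differed by a chi-square of 25.5 to 139 per gene, far above sampling noise, so each was counted as its own sample. The labels call them biological repeats of pooled plants. Same-numbered libraries deviated from their group means with correlations of -0.588 to 0.447, and 5 of 18 were over 0.1, so the numbers were not taken as pairs. Intervals cover counting error only.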

Additional observations from a re-analysis of the deposited data

Results flagged for a closer look

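The response to chilling differed between the hours in 33 of the 40 members (interaction term, edgeR's quasi-likelihood test, beside 9.24% of all genes tested), which the rule for choosing them favours and which is therefore no independent result. Among the named members the fitted difference of the log2 rises, dawn minus dusk, was 5.73 for OsR498G1018624000.01, 5.502 for OsR498G0409454700.01, 1.93 for OsR498G0714928600.01, 1.64 for OsR498G0816265000.01 and 1.80 for OsR498G1018809400.01. It was 2.01 for OsR498G0409056600.01 (edgeR adjusted p = 0.0786) and 1.79 for OsR498G0306639200.01 (edgeR adjusted p = 0.297), neither of which passed the test. Groups of 3 libraries are too small to test a single library as standing apart.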

How the results depend on the processing

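Which genes meet the rule depended on scaling and on single libraries. Total-count scaling gave 69 genes, of which 19 were among the 40, and moved the members with a larger linear gain at dusk from 22 to 13, a setting chosen after seeing the data. It also moved the median of all genes by more than 0.1 in 4 contrasts, to -0.77 for the dusk rise and 0.73 for the difference. All genes called for the difference then numbered 10591, with 37.6% higher and 5.31% lower, against 9.24% and 13.0% under TMM. For the dusk rise the split was 10.6% higher and 53% lower against 24.9% and 20%, and 26 members were called. For dawn against dusk it was 12.6% higher and 35.2% lower at 28 °C (23.2% and 20.9% under TMM) and 31.4% and 14.3% in the cold (20.3% and 21.8%). Upper-quartile scaling of the rule gave 45 genes (33 shared), and the split of all genes was 13.3% higher and 9.90% lower for the difference and 17.8% and 31.6% for the dusk rise. With 1 library left out, the rule gave 34 to 75 genes, of which 28 to 39 were among the 40.

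Tests on the 40 members moved less. Over 19 alternatives, 25 to 27 members were called lower at dawn on the contrast averaged over temperatures and 5 to 6 higher, and 28 to 36 had a called difference. The 1 member called higher at dawn at 28 °C fell to 0 under upper-quartile and total-count scaling and to 0 to 1 with 1 library left out. For OsR498G0409454700.01 the uncalled averaged difference changed sign, from -0.55 to 1.51 with 1 library left out. With the replicate number as a block, 28 members had a called difference against 33, 25 against 26 were lower at dawn, and 0 of the 12 libraries correlated best with their own number in every other group. Few counts in NT24 limit the dawn folds: 8 members had under 30 counts there over 3 libraries.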
